A study of Condylura cristata and Mus musculus with 12 samples.

Results

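Cadherins, protocadherins, contactins, contactin-associated proteins, neurexins and neuroligins are proteins of the cell surface that hold cells and nerve terminals together. Their genes were compared between the trigeminal ganglia (TG) and the dorsal root ganglia (DRG) of the star-nosed mole and of the mouse. Members were taken by symbol, by a rule that holds no measured value: every numbered Cdh and Pcdh gene, Cntn and Cntnap gene, Nrxn2 and Nrxn3, and Nlgn1 to Nlgn3, with Cdh9 and Cdh19 left out. This gave 52 of the 33773 genes in the mole table and 51 of the 26125 in the mouse table, and the 1 symbol in the mole table alone was Cntnap5.

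The mole samples came from adult male wild animals, with 3 libraries per ganglion, and the mouse samples from adult female C57BL/6 animals, with 2 libraries per ganglion. By the study's methods each sample was 1 individual, except 1 mole DRG sample that pooled 2. Whole ganglia were used, with no sorting of cells, and polyadenylated RNA was sequenced. TG neurons supply the face and, in this mole, the touch-sensitive nasal star, while DRG neurons supply the rest of the body. Nothing in the labels ties a TG library to a DRG library of the same animal.

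Classical cadherins bind like cadherins on a neighbouring cell through calcium-dependent extracellular repeats and connect to actin through catenins. Type I members such as Cdh1 (E-cadherin) and Cdh2 (N-cadherin) carry strong adhesion, and type II members such as Cdh8 and Cdh11 mark particular neurons and tissues. Protocadherins are a related group whose tails do not bind catenins in the classical way. Contactins are anchored by a lipid and pair with the Caspr proteins encoded by the Cntnap genes, and Cntn1 with Cntnap1 forms the axonal side of the paranodal junction with myelin, while Cntn2 with Cntnap2 sits at the juxtaparanode. Neurexins on the presynaptic membrane bind neuroligins and other ligands across the synapse.

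Library totals ran from 8409670 to 11140894 counts in the mole TG and from 9706906 to 92323879 in the mole DRG, and from 90548941 to 147076817 in the mouse. Mole TG 1 stood apart from the other TG libraries, with a rank correlation over genes of 0.866 with mole TG 2 and 0.855 with mole TG 3, against 0.974 between those 2. Mole DRG 2 gave 0.919 and 0.900 with mole DRG 1 and 3, against 0.970 between them. Replicate 1 of each mole ganglion came from the Genomic Sample Prep kit with reads of 76 bases, whereas TruSeq was used for all others. In the mouse, Hox genes, which mark spinal levels and are low in cranial ganglia, went against the labels: 24 of 28 tested were higher in the libraries labelled TG and 0 in the DRG-labelled ones, with a summed level of 204 to 233 against 35.7 to 60.4 counts per 1000000 library counts (CPM). In the mole 18 of 26 Hox genes were higher in DRG. Mouse libraries are therefore named by their labels throughout, and every mouse direction rests on them.

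Counts were scaled to CPM with trimmed-mean (TMM) factors, and TG was compared with DRG by edgeR's quasi-likelihood test over all genes, with a threshold of 0.05 on the Benjamini-Hochberg adjusted p. In the mole, 45 members had counts enough to be tested. The 7 others, Cdh17, Cdh26, Cdh29, Cntn6, Cntnap5a, Cntnap5b and Cntnap5c, had at most 34 counts in a library. Among the 45, 2 members were higher in TG (4.44%, against 10.5% of all 18078 genes tested) and 9 were higher in DRG (20%, against 12.9%). Their median log2 fold change of TG over DRG was -0.44, beside 0.11 over all genes, and 31 of the 45 estimates were negative. The libraries of the 2 ganglia did not overlap for 7 members higher in TG and 14 higher in DRG, while 44.1% of all genes tested had no overlap in either direction. Summed over members, the level was 1550 to 1820 CPM in TG and 1890 to 2750 CPM in DRG. In whole ganglia, fewer cells of a type and less RNA per cell cannot be told apart.

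**Figure D1:**
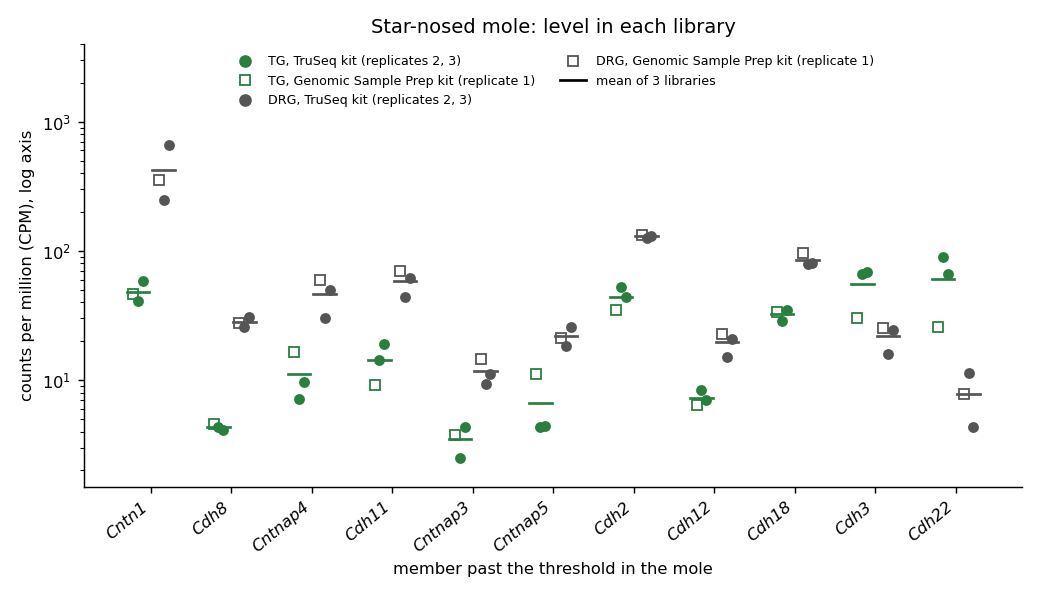
Level of the 11 members past the threshold in the mole, in CPM on a log axis, for each of the 3 TG libraries (green) and 3 DRG libraries (grey), with open squares for the Genomic Sample Prep kit and lines for the means. Cntn1, Cdh8 and 7 others sit lower in every TG library than in every DRG library, and Cdh3 and Cdh22 sit higher in every TG library.

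Among contactins, Cntn1 had the largest difference of any tested member and was lower in TG. Cntn1, the contactin of the paranode and of many axons, stood at 46.1, 40.7 and 58.6 CPM in TG replicates 1, 2 and 3 and, in the DRG replicates, at 355, 250 and 659 CPM. Every TG library lay below every DRG library, and the means were 48.5 ± 9.19 and 422 ± 212 CPM (SD, n = 3), an 8.70-fold difference. The log2 fold change was -3.12 with a standard error of 0.41 (edgeR adjusted p = 0.00798). It passed when any 1 library was left out, with 0.0453 as the highest edgeR adjusted p, without mole TG 2.

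The other contactins did not pass in the mole. Cntn2, the contactin of the juxtaparanode, had 149, 190 and 257 CPM in TG and 292, 118 and 218 CPM in DRG, with the ganglia overlapping and a log2 fold change of -0.08 (SE 0.38). Cntn4, an axon guidance contactin, pointed the other way, with 20.6, 10.3 and 9.80 CPM in TG and 5.96, 2.92 and 7.38 CPM in DRG. Every TG library of Cntn4 lay above every DRG library, but its log2 fold change of 1.31 (SE 0.50) had an edgeR adjusted p of 0.0906. With offsets for GC content Cntn4 passed, at 2.28 and an edgeR adjusted p of 0.0193, and it also passed with upper-quartile factors at 1.46 (0.0499). Cntn5 had 8.57, 6.77 and 7.72 CPM in TG against 16.6, 8.46 and 16.8 CPM in DRG (log2 fold change -0.86, SE 0.39, edgeR adjusted p = 0.139). Cntn3 was at most 1.21 CPM in every mole library and gave 0.18 (SE 0.73). Cntn6, not tested, had 1 to 19 counts per library.

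The make-up of the contactin counts can be read as shares. Cntn1 held 20.5%, 16.3% and 17.5% of contactin counts in the 3 TG libraries, and 53.0%, 65.5% and 73.1% in the DRG, with no overlap. Cntn2 held 66.0%, 76.1% and 76.7% in TG and 43.5%, 30.9% and 24.1% in DRG. Cntn4 held 2.92% to 9.16% in TG and under 1% in DRG, where the values were 0.888%, 0.763% and 0.818%. In the mouse, Cntn1 held 49.2% and 51.0% in libraries labelled TG and 58.4% and 58.9% in the DRG-labelled ones, a narrower gap in the same direction by label. These are shares of counts, not of molecules, since transcript length is not corrected.

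**Figure D2:**
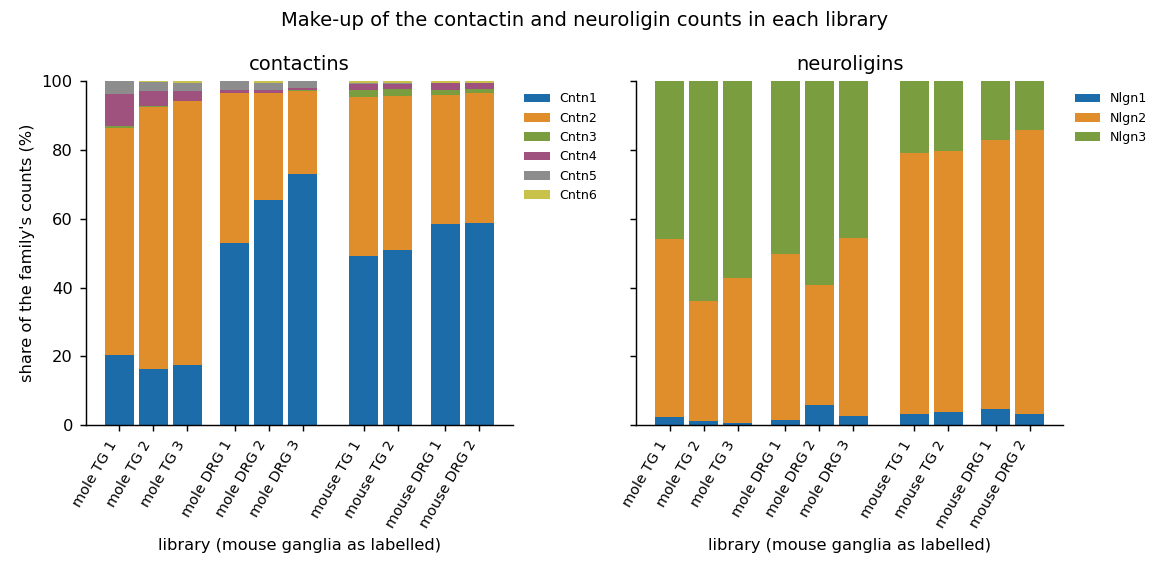
Share of contactin counts (left) and neuroligin counts (right) held by each gene, in percent, in each of the 10 libraries, with mouse ganglia as labelled. Cntn1 holds 16.3% to 20.5% of contactin counts in the mole TG and 53.0% to 73.1% in the mole DRG, while Nlgn3 holds 46.0% to 63.9% and 45.7% to 59.3% of neuroligin counts, which overlap.

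Of the 5 contactin-associated proteins tested in the mole, 3 were lower in TG and none was higher. Cntnap4, found on interneurons and also in sensory neurons, had 16.6, 7.14 and 9.62 CPM in TG and 59.3, 30.3 and 49.7 CPM in DRG. The ganglia did not overlap, with a log2 fold change of -2.07 (SE 0.43, edgeR adjusted p = 0.0170). Cntnap3 had 3.75, 2.50 and 4.34 CPM in TG and 14.6, 9.34 and 11.1 CPM in DRG, again with no overlap (log2 fold change -1.72, SE 0.41, edgeR adjusted p = 0.0247). Human CNTNAP3 has a near-identical copy, so reads counted for this gene are uncertain. Cntnap5, the single human-style symbol, had 11.1, 4.36 and 4.42 CPM in TG and 21.2, 18.4 and 25.7 CPM in DRG. TG over DRG came to -1.72 on the log2 scale (SE 0.46, edgeR adjusted p = 0.0342). The mouse-style copies Cntnap5a, Cntnap5b and Cntnap5c had 0 to 5 counts in each mole library. Mole reads were aligned to human transcripts first.

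Each of the 3 calls was lost without any 1 of 4 libraries, mole TG 2, mole TG 3, mole DRG 1 and mole DRG 3. Calls fell over all genes too in these fits. Genes higher in TG went from 1900 to 209, 391, 203 and 253 in that order, and genes higher in DRG from 2341 to 200, 454, 385 and 443. Cntnap4 gave an edgeR adjusted p of 0.0742, 0.0665, 0.0735 and 0.0661 without mole TG 2, mole TG 3, mole DRG 1 and mole DRG 3. In the same order, Cntnap3 gave 0.112, 0.0665, 0.102 and 0.0788, and Cntnap5 gave 0.128, 0.110, 0.104 and 0.117. The Caspr genes of the node region did not pass. Cntnap1, the Caspr of the paranode, had 225, 225 and 230 CPM in TG and 461, 198 and 268 CPM in DRG (log2 fold change -0.45, SE 0.33). Cntnap2, the Caspr of the juxtaparanode, had 72.7, 64.1 and 68.8 CPM in TG and 116, 42.1 and 114 CPM in DRG (-0.40, SE 0.39). For both genes mole DRG 2 lay below every TG library while the other DRG libraries lay above them, with edgeR adjusted p of 0.351 and 0.469. Without mole DRG 2, Cntnap2 passed at -0.82 (edgeR adjusted p = 0.0348), in a fit that called 3546 and 3490 genes higher in TG and DRG.

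Among neurexins, Nrxn2 and Nrxn3 did not pass. Nrxn2 had 279, 303 and 316 CPM in TG and 210, 213 and 171 CPM in DRG, with no overlap (log2 fold change 0.60, SE 0.23, edgeR adjusted p = 0.0898). Nrxn3 had 87.5, 49.0 and 42.7 CPM in TG and 69.7, 109 and 78.5 CPM in DRG (-0.52, SE 0.35, edgeR adjusted p = 0.30). For Nrxn3 the ganglia overlapped, since mole TG 1 lay above 2 of the 3 DRG libraries. Without mole TG 1, Nrxn3 passed at -0.96 (edgeR adjusted p = 0.0436), in a fit that called 2306 and 3619 genes higher in TG and DRG.

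No neuroligin passed in the mole. Nlgn1, mostly of excitatory synapses, was sparse at 2.55, 1.30 and 1.04 CPM in TG and 2.93, 6.22 and 3.05 CPM in DRG, with every TG library below every DRG library (log2 fold change -1.33, SE 0.60, edgeR adjusted p = 0.142). Nlgn2, of inhibitory synapses, had 54.1, 37.9 and 58.3 CPM in TG and 86.2, 36.3 and 58.8 CPM in DRG (-0.27, SE 0.37). Nlgn3 had 48.2, 69.3 and 79.0 CPM in TG and 90.3, 62.0 and 52.0 CPM in DRG (-0.05, SE 0.32). The ganglia overlapped for both.

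Classical cadherins held the remaining 7 calls, 5 lower and 2 higher in TG. Of the 11 type II members tested, 4 were lower in TG and 1 was higher. Cdh8, a type II cadherin that labels sets of sensory and central neurons, had 4.55, 4.36 and 4.08 CPM in TG and 27.7, 25.7 and 31.0 CPM in DRG. The replicates of each ganglion lay close together and 6.50-fold apart between ganglia (log2 fold change -2.70, SE 0.31, edgeR adjusted p = 0.00756). This call passed with any 1 library left out, with 0.0437 as the highest edgeR adjusted p, without mole DRG 1. Cdh8 and Cntn1 were the only members of the 11 to do so.

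Cdh11, a cadherin of mesenchymal cells and of some neurons, had 9.24, 14.3 and 19.2 CPM in TG and 69.6, 44.2 and 61.8 CPM in DRG (log2 fold change -2.04, SE 0.36, edgeR adjusted p = 0.0123). Its edgeR adjusted p was 0.0629, 0.0558 and 0.0511 without mole TG 2, mole DRG 1 and mole DRG 3. Cdh18 had 33.9, 28.8 and 34.9 CPM in TG and 96.0, 79.9 and 81.0 CPM in DRG (-1.40, SE 0.24, edgeR adjusted p = 0.0121), with 0.0735, 0.0531 and 0.0568 without mole TG 2, mole TG 3 and mole DRG 1. Both genes had every TG library below every DRG library. Cdh12 had 6.43, 8.34 and 7.02 CPM in TG and 22.8, 15.2 and 20.8 CPM in DRG (-1.43, SE 0.33, edgeR adjusted p = 0.0235). For Cdh12 the edgeR adjusted p rose to 0.0875, 0.0861, 0.0925 and 0.0843 when TG 2, TG 3, DRG 1 or DRG 3 of the mole was left out.

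Cdh22, also of type II, was the member with the largest excess in TG. Its levels were 25.7, 89.1 and 65.9 CPM in TG and 7.76, 11.4 and 4.32 CPM in DRG, with mole TG 1 under the other TG libraries and still above every DRG library. The means were 60.2 ± 32.1 and 7.82 ± 3.53 CPM (SD, n = 3), 7.70-fold apart, for a log2 fold change of 2.96 (SE 0.56, edgeR adjusted p = 0.0142). Leaving out mole TG 2, mole DRG 1 or mole DRG 3 gave an edgeR adjusted p of 0.0599, 0.0644 and 0.0594. The 6 other type II cadherins tested had log2 fold changes between -1.09 and 1.02 and did not pass.

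Of the 5 type I cadherins, Cdh2 was lower and Cdh3 higher in TG. Cdh2 (N-cadherin), the main cadherin of neurons and of Schwann cell precursors, had 34.6, 52.6 and 44.0 CPM in TG and 132, 126 and 131 CPM in DRG (log2 fold change -1.56, SE 0.26, edgeR adjusted p = 0.0110). The DRG libraries lay within 6 CPM of each other, and the ganglia did not overlap. Without mole TG 2 and without mole TG 3, Cdh2 gave an edgeR adjusted p of 0.0513 and 0.0511. Cdh3 (P-cadherin), known from basal epithelium, had 30.4, 65.8 and 69.3 CPM in TG and 25.1, 15.9 and 24.6 CPM in DRG, with mole TG 1 just above mole DRG 1 (1.33, SE 0.39, edgeR adjusted p = 0.0434). It had the highest adjusted p of the 11 calls: leaving out mole TG 2, TG 3, DRG 1, DRG 2 or DRG 3 gave an edgeR adjusted p of 0.155, 0.145, 0.12, 0.0841 and 0.13, DESeq2 gave an adjusted p of 0.0522, and edgeR with no filter on low counts gave 0.0791.

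Cdh1 (E-cadherin), which in peripheral nerve lies in the non-compact myelin of Schwann cells, had 13.0, 24.9 and 25.9 CPM in TG and 83.2, 26.9 and 65.6 CPM in DRG. The highest TG library lay just under mole DRG 2, and the log2 fold change of -1.46 (SE 0.47) had an edgeR adjusted p of 0.0586. Cdh1 passed with DESeq2 (adjusted p = 0.0162) and in edgeR with no filter (0.030). On the TG side Cdh15, also of type I, lay just over the threshold, at 1.47 (SE 0.45, edgeR adjusted p = 0.0507) with no overlap. It passed with DESeq2 (adjusted p = 0.0251) and in edgeR with RLE factors (0.0489). In the mouse genome (GRCm38) Cdh3 lies on chromosome 8 at 106510891-106557297 and Cdh1 next to it at 106603351-106670246, both on the plus strand, so these neighbours had estimates of opposite sign in the mole. Markers of surface epithelium were higher in the mole TG for 6 of 13 tested and in DRG for 0, beside 10.5% and 12.9% of all genes. They summed to 97.6 to 1630 CPM in TG and 41.7 to 49.0 CPM in DRG. Their part in the Cdh3 difference was not tested.

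**Figure D3:**
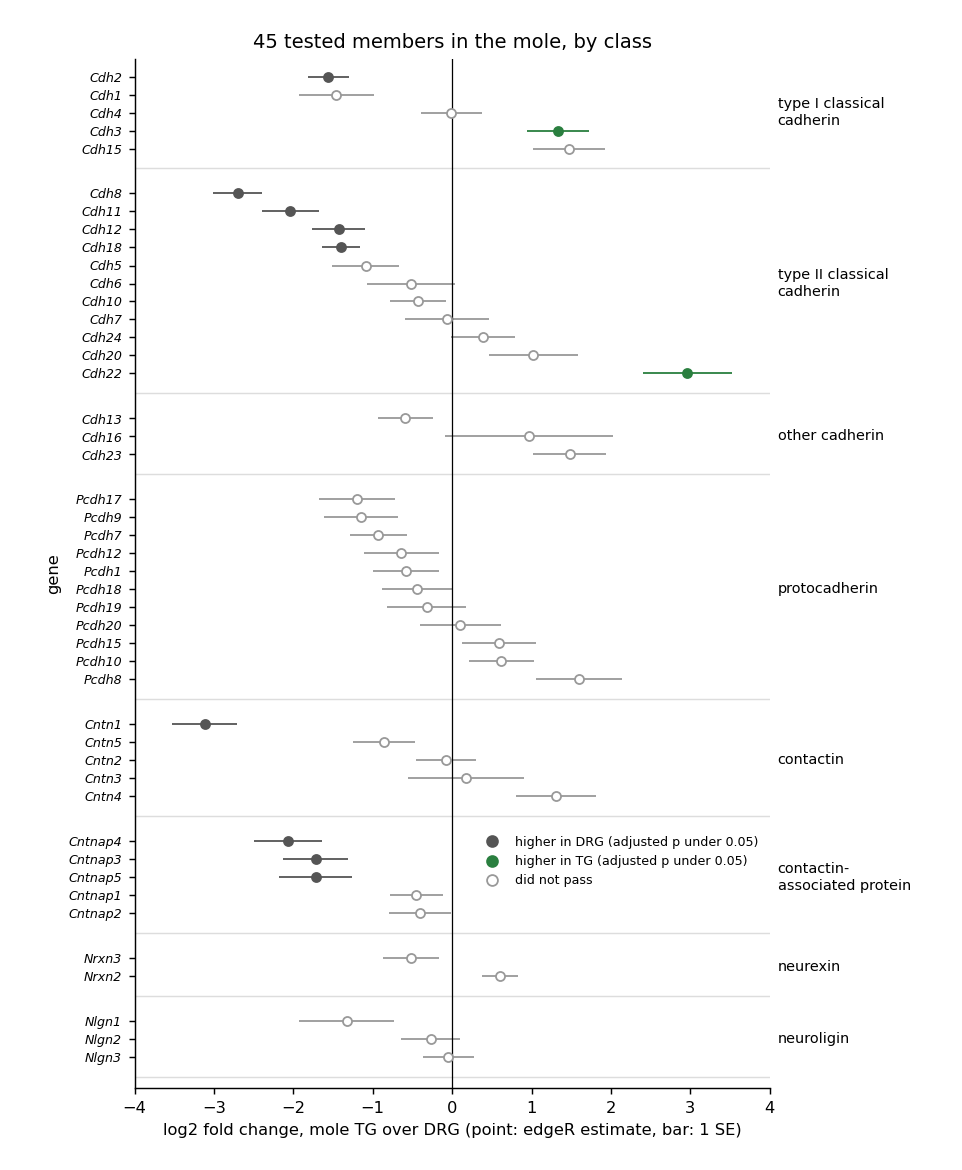
Log2 fold change of TG over DRG in the mole for the 45 tested members by class, as edgeR estimates with bars of 1 SE, filled where the adjusted p was under 0.05. The 9 filled points left of 0 lie among cadherins, contactins and Caspr genes, the 2 filled points right of 0 are Cdh3 and Cdh22, and all 11 protocadherins are open.

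None of the 11 protocadherins passed, with log2 fold changes from -1.20 to 1.60 and a median of -0.44. Pcdh1 had 37.9, 64.3 and 89.5 CPM in TG and 139, 59.5 and 88.1 CPM in DRG (-0.58, SE 0.42), and Pcdh9 had 53.6, 15.7 and 21.9 CPM in TG and 55.4, 66.5 and 79.7 CPM in DRG (-1.15, SE 0.47, edgeR adjusted p = 0.110). For Pcdh9 mole TG 1 lay just under the DRG and the 2 TruSeq TG libraries far below it. Among the 4 TruSeq libraries alone, Pcdh9 passed at -2.02 (edgeR adjusted p = 0.0339), as did Pcdh7 at -1.51 (0.0421) and Pcdh17 at -2.14 (0.0335). Pcdh7 and Pcdh17 are named because of that change and were picked after their values were seen. With GC offsets Pcdh1 passed at -1.79 (edgeR adjusted p = 0.0431). The remaining protocadherins ran from -0.64 to 1.60. The 3 tested cadherins outside types I and II, Cdh13, Cdh16 and Cdh23, did not pass, at -0.59, 0.97 and 1.48. Cdh23 lay just over the threshold (edgeR adjusted p = 0.0508), with no overlap of the ganglia, and passed with DESeq2 (adjusted p = 0.0391).

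The calls were next read against library kit and GC content. The ganglia overlapped for none of the 11 called members. The direction in the pair of Genomic Sample Prep libraries, mole TG 1 over mole DRG 1, was thereby fixed and cannot test the kit. Its log2 ratios, with 0.5 CPM added to each level, were smallest for Cdh3 (0.27) and Cntnap5 (-0.90). The largest was -2.93 for Cntn1. In the 4 TruSeq libraries 9 of the 11 passed. The exceptions were Cdh12 at -1.30 (edgeR adjusted p = 0.0837) and Cntnap3 at -1.64 (0.0830).

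GC content moved with the fold changes. Over 13665 mole genes with a GC value, taken from the mouse transcript of the same symbol, GC content and log2 fold change had a Spearman correlation of 0.57, and over the 44 members with a value 0.39; genes share libraries, so both are descriptions. The 8 members higher in DRG with a value had a GC content of 38.6% to 49.5% (median 44.3%), and the 34 members without a call 38.9% to 62.4% (median 48.8%). With offsets that remove the trend, 6 of the 11 calls were kept. Cntn1 was then at -2.09 (edgeR adjusted p = 0.0178), Cdh8 at -1.72 (0.0200), Cdh2 at -1.29 (0.0251), Cntnap4 at -1.56 (0.0378) and Cdh22 at 1.68 (0.0465), while Cntnap5, which had no GC value and was not adjusted itself, passed at 0.0465. With the replicate block added to the offsets, Cdh22 did not pass (0.0557).

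The other 5 did not pass with the GC offsets, and some lost most of their size. Cdh12 went from -1.43 to -0.26 (edgeR adjusted p = 0.704). Cntnap3 was at -0.76 (0.253), Cdh18 at -0.80 (0.0731), Cdh11 at -1.13 (0.101) and Cdh3 at 1.09 (0.0865). All 11 kept their sign.

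**Figure D4:**
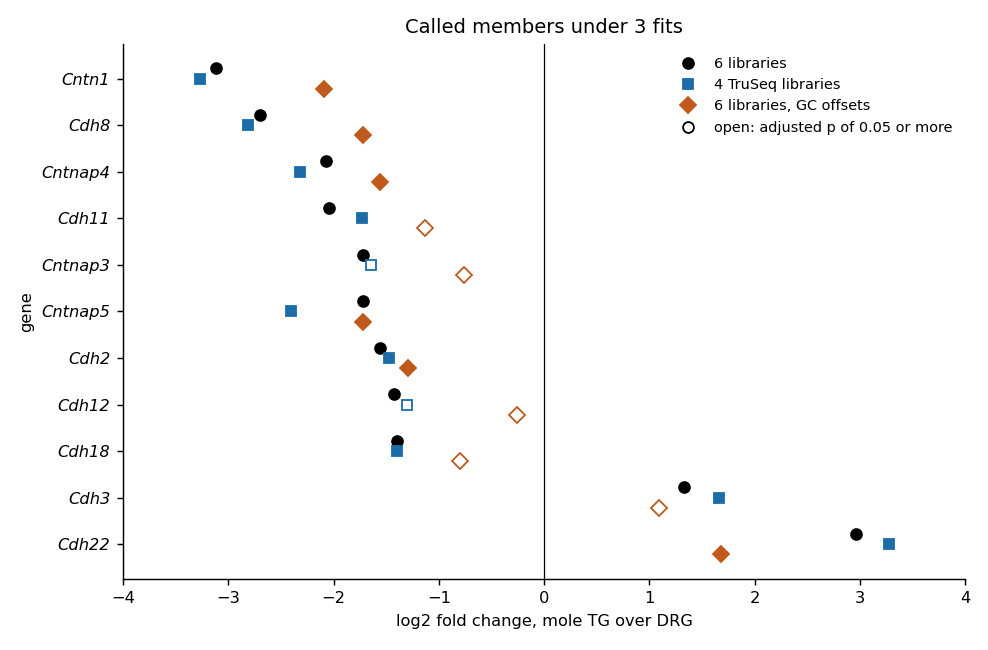
Log2 fold change of TG over DRG in the mole for the 11 called members in all 6 libraries (black circles), the 4 TruSeq libraries (blue squares) and all 6 libraries with GC offsets (orange diamonds), open where the edgeR adjusted p was 0.05 or more. Every point keeps the sign of its gene, which for the squares was all but fixed, since the ganglia overlapped for none of these members. The GC offsets leave 5 of the 11 diamonds open.

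Members were also placed along the mouse genome, and chromosomes 8 and 15 are named after their calls were seen. Of the members placed in GRCm38, 9 lie on chromosome 8, where 3 had higher levels in DRG of the mole (Cdh8, Cdh11 and Cntnap4) and 1 in TG (Cdh3). Chromosome 15 holds 5, and 3 of them were higher in DRG. These were Cdh12 at 20449265-21589533 and Cdh18 at 22549022-23474418, which are adjacent members, and Cntn1 at 92051165-92341967. Chromosome 14 also had 5 tested members and 0 calls, and chromosomes 1, 3 and 6 had 3 tested members each and 0 calls. Over all tested members 20% were higher in DRG and 4.44% in TG, beside 12.9% and 10.5% of all genes. Grouping by position was not tested. Cdh8 lies on chromosome 8 at 99024471-99416471 and Cdh22 on chromosome 2 at 165111507-165234853. These are places of the mouse genes; mole coordinates were not used here.

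Known binding partners of these families were counted in the same fit. Of 14 catenins and related proteins, which join cadherins to the cytoskeleton, 4 had higher levels in the DRG of the mole and 1 in its TG, where 12.9% and 10.5% of all genes tested were called. They include Vcl (vinculin), at 36.4 ± 11.4 CPM in TG and 104 ± 30.5 in DRG (log2 fold change -1.52, edgeR adjusted p = 0.0236), Ctnnb1 (beta-catenin), at 127 ± 23.2 and 339 ± 70.2 CPM (-1.42, edgeR adjusted p = 0.0149), and Ctnna2, the alpha-catenin of neurons, at 106 to 125 and 209 to 339 CPM (-1.30, edgeR adjusted p = 0.0167), with n = 3 per ganglion. The 1 partner higher in TG was Pkp3, a plakophilin of epithelial desmosomes, at 12.8 ± 8.73 and 0.523 ± 0.644 CPM (4.73, edgeR adjusted p = 0.0177). Among 28 synaptic partners of neurexins and neuroligins, 8 were higher in DRG and 2 in TG. They include the neurexin ligand Lrrtm2 at 2.17 ± 1.28 and 13.1 ± 3.76 CPM (-2.62, edgeR adjusted p = 0.0166) and the latrophilin Lphn3 at 13.1 ± 3.21 and 45.2 ± 10.4 CPM (-1.78, edgeR adjusted p = 0.0135).

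Partners at the node of Ranvier and along the axon were counted likewise. Of 16 tested node, paranode and juxtaparanode genes, 6 were higher in DRG and 1 in TG. Kcna2, the potassium channel that clusters with Cntn2 and Cntnap2, had 3.06 ± 0.532 CPM in TG and 22.0 ± 3.31 in DRG (log2 fold change -2.85, edgeR adjusted p = 0.00770), although neither Cntn2 nor Cntnap2 passed. Adam22 was at 15.1 ± 7.71 and 94.5 ± 29.5 CPM (-2.65, edgeR adjusted p = 0.0111). Of 13 contactin and L1 family partners, of which Nfasc and Nrcam are in the node list too, 5 were higher in DRG and 0 in TG, among them Ptprg, a receptor phosphatase that binds contactins, at 20.4 ± 4.11 and 77.9 ± 22.5 CPM (-1.94, edgeR adjusted p = 0.0113). The median log2 fold changes of the 4 lists were -0.49, -0.64, -1.25 and -1.19, beside 0.11 over all genes tested, and the differences between the lists were not tested.

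Markers of cell types in and around the ganglia were counted in the mole too, where 10.5% of all genes tested were higher in TG and 12.9% in DRG. Myelin and Schwann cell genes were higher in TG for 11 of 19 and in DRG for 0, with sums of 11200 to 12800 and 2050 to 4010 CPM. Satellite glia genes were higher in TG for 2 of 9 (8080 to 8730 against 3070 to 3290 CPM). Apoe made up 7260 ± 544 and 2010 ± 200 of these sums, and the list median was 0.18 on the log2 scale. Skeletal muscle genes were higher in TG for 9 of 19 (1800 to 4660 against 743 to 1300 CPM). Central nervous system genes were higher in TG for 8 of 17, with 1 higher in DRG (819 to 1270 against 250 to 344 CPM). The highest genes of that list were Slc17a7, at 513 ± 59.3 and 220 ± 64.4 CPM, and Gfap, at 298 ± 133 and 19.2 ± 9.98 CPM. Mog and Mobp, both higher in TG, are counted in this list and in the myelin list, so the 2 lists are not separate. Endothelium had 3 of 12 higher in TG and 1 in DRG (237 to 320 against 168 to 183 CPM), and fibroblasts and meninges 1 and 2 of 12 (724 to 1330 against 1020 to 1470). The fibroblast and meningeal counts are near the shares over all genes.

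Neuron markers were counted beside the same shares, 10.5% of all genes higher in TG and 12.9% in DRG. General sensory neuron genes were higher in DRG for 2 of 14, near that share, and in TG for 0. Their sums overlapped, at 27700 to 53100 CPM in TG and 25700 to 36700 CPM in DRG. Nociceptor genes, of neurons that sense damage, were higher in DRG for 8 of 10 (630 to 764 against 4520 to 5860 CPM), and light touch and proprioceptor genes were split, with 4 of 13 higher in TG and 3 in DRG (2510 to 3660 against 2560 to 4640). No listed marker was at 0 in all mole libraries. The part of cell make-up in the members' differences was not tested.

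In the mouse, 50 members were tested with edgeR and 1 passed, higher in the libraries labelled TG (2%, beside 1.12% of 21394 genes). None was higher in the libraries labelled DRG (beside 1.21%). DESeq2 called 4 members higher by label in TG and 1 in DRG, beside 745 and 1032 of the 21060 genes it tested. The member that passed was Cdh11, at 154 and 154 CPM in the libraries labelled TG and 98.1 and 86.1 CPM in the DRG-labelled ones (log2 fold change 0.74, SE 0.13, edgeR adjusted p = 0.0477). It was lost without mouse TG 1 (edgeR adjusted p = 0.462) or mouse TG 2 (0.447), which leaves 1 library in a group and assumes that it varies like the others. The median over members was 0.05, beside -0.02 over all genes.

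DESeq2 also called Cdh3 (log2 fold change 1.34), Cdh12 (1.51) and Pcdh15 (0.96) higher and Cdh22 (-2.02) lower in the libraries labelled TG. With edgeR these had adjusted p of 0.0616, 0.156, 0.187 and 0.121. Cdh22 had 1.59 and 0.842 CPM in the libraries labelled TG and 2.95 and 6.89 CPM in the DRG-labelled ones, so the group with more Cdh22 had the smaller Hox sum. Of the partner lists, 0 catenins, 3 synaptic partners (higher by label in DRG), 1 node gene (higher by label in DRG) and 0 contactin and L1 partners passed in the mouse. Myelin genes were higher in the mouse libraries labelled DRG for 16 of 19 (5330 to 5370 against 12600 to 16200 CPM).

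The other mouse marker lists were counted beside 1.12% of all genes higher by label in TG and 1.21% in DRG. Central nervous system genes were higher by label in DRG for 5 of 17 (225 to 249 against 566 to 596 CPM) and satellite glia genes for 1 of 10, and in TG for 0 of either. Nociceptor genes were higher by label in TG for 6 of 11 and in DRG for 1 (5790 to 5880 against 3470 to 3540 CPM), muscle genes in TG for 8 of 19 (90.2 to 126 against 38.3 to 68.2 CPM), and fibroblast and meningeal genes in TG for 1 of 12. Light touch genes had 1 of 13 each way. Surface epithelium, endothelium and general sensory neuron genes had 0 past the threshold of 12, 12 and 14 tested. The part of these lists in the mouse values was not tested.

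Levels between genes could be compared per kilobase in the mouse, where transcript lengths are known. Cntn1 was highest of all members, at 99.5 ± 6.36 CPM per kilobase in libraries labelled TG and 135 ± 16.2 in the DRG-labelled ones (SD, n = 2), and Cntn2 followed at 71.3 ± 1.11 and 68.3 ± 8.52. Cntnap1 came next over all libraries, at 58.4 ± 0.606 and 71.7 ± 1.20, and in the libraries labelled DRG it did not differ from Cntn2 beyond their spread. So the paranodal pair Cntn1 and Cntnap1 and the juxtaparanodal Cntn2 held the top 3 places, with Cntnap2 at 21.3 ± 1.52 and 17.2 ± 1.95. The other contactins averaged from 0.446 to 3.87 CPM per kilobase over the 4 libraries. Among cadherins Cdh1 was highest, at 36.2 ± 3.24 and 36.2 ± 2.29 CPM per kilobase, and then Cdh11 at 27.2 ± 0.00128 and 16.3 ± 1.51. In the libraries labelled DRG, Cdh2 at 20.9 ± 0.646 stood above Cdh11.

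Neuroligins were led by Nlgn2, at 32.6 ± 0.762 and 38.3 ± 5.36 CPM per kilobase, far over Nlgn3 at 5.75 ± 0.259 and 4.83 ± 0.202 and Nlgn1 at 0.715 ± 0.0599 and 0.890 ± 0.157. Nrxn2 at 27.6 ± 2.45 and 30.3 ± 9.0 lay above Nrxn3 at 6.43 ± 0.264 and 4.99 ± 0.715. Among protocadherins, Pcdh1 at 18.1 ± 1.04 and 13.2 ± 4.05 and Pcdh9 at 12.6 ± 1.35 and 13.7 ± 1.14 led over all 4 libraries. In the libraries labelled DRG they overlapped with each other and with Pcdh7, at 9.23 ± 0.815 by label in TG and 13.9 ± 2.47 in DRG. The longest coding transcript stood for each gene, so these levels shift where a shorter form is used.

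Whether the ganglia differed in another way in the mole than in the mouse was tested as an interaction in 1 fit of all 10 libraries. Of 51 members, 1 had a larger mole than mouse log2 fold change of TG over DRG (1.96%, beside 4.39% of 21580 genes), and 9 had a smaller one (17.6%, beside 12.6%). The median difference was -0.75 over members and -0.16 over all genes. The all-gene median and split depend on scaling: it was 0.31 with RLE and 0.47 with upper-quartile factors, and the counts of larger and smaller differences over all genes went from 948 and 2723 to 1570 and 1697 and to 1791 and 1498. Members called were 1 and 9 with RLE and 2 and 6 with upper-quartile factors.

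The positive difference was that of Cdh22, at 4.50 (SE 0.83, edgeR adjusted p = 0.00625), or 4.66 above the all-gene median. Its excess in the mole TG faced a value of -2.01 in the mouse by label. Negative differences, by label, included Cdh12 at -3.41 (SE 0.60, edgeR adjusted p = 0.00505), Cdh8 at -3.33 (SE 0.45, 0.00195), Cdh11 at -3.25 (SE 0.48, 0.00257) and Cntn1 at -3.16 (SE 0.55, 0.00514). Cdh8 was 20.9 and 20.9 CPM in mouse libraries labelled TG and 23.3 and 14.0 CPM in the DRG-labelled ones, with overlap. Cdh11 passed in both species in opposite directions by label.

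Smaller negative differences passed for Cntnap4 (-2.82, SE 0.59, edgeR adjusted p = 0.0101), Cntnap3 (-2.66, SE 0.66, 0.0197) and Cntn5 (-2.37, SE 0.59, 0.0198). Those of Cdh18 (-1.89, SE 0.37, 0.00800) and Cdh2 (-1.86, SE 0.36, 0.00745) completed the 9. Cntn5 passed here though in neither species alone, with 2.55 and 2.47 CPM in mouse libraries labelled TG and 1.33 and 1.13 CPM in the DRG-labelled ones. Relative to the all-gene median, the 9 ran from -3.25 to -1.70.

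Of the 10 interaction calls, 5 were kept with any 1 library left out: Cdh8, Cdh11, Cdh12, Cdh22 and Cntn1. The other 5 did not pass without mouse DRG 2, a fit that leaves 1 library in that group. The differences were then -1.67 for Cdh18, -1.80 for Cdh2, -2.17 for Cntn5, -2.16 for Cntnap3 and -2.60 for Cntnap4. Without mouse TG 2, which likewise leaves 1 library in a group, Cdh2 (-1.66), Cntn5 (-2.32) and Cntnap3 (-2.30) did not pass. Cntnap3 was also lost without mole DRG 3 (edgeR adjusted p = 0.0521), and Cntn5 without mole DRG 1 (0.0501) or mole DRG 3 (0.0623). Cntn5 did not pass without mouse TG 1 (-2.28) or mouse DRG 1 (-2.45) either, again with 1 library left in a group. With upper-quartile factors Cdh2 (edgeR adjusted p = 0.0561), Cntn5 (0.050) and Cntnap3 (0.0547) did not pass.

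Hox genes went against the mouse labels. Myelin genes were higher in the mole TG for 11 of 19 and in the mouse libraries labelled DRG for 16 of 19. Central nervous system genes had 8 of 17 in the mole TG, with 1 in DRG, and 5 of 17 in mouse libraries labelled DRG. Mog and Mobp are in both of these lists. Nociceptor genes had 8 of 10 in the mole DRG and, by label in the mouse, 6 of 11 in TG and 1 in DRG. Muscle genes were higher in TG by label in both species. The Hox gene Hoxd1, at 22.0 ± 1.10 by label in TG and 33.0 ± 16.6 CPM in DRG, did not pass in the mouse (edgeR adjusted p = 0.456). The sign of the mouse term was therefore turned in the same fit, a setting chosen after seeing the data. Of the 10 members, 4 still passed: Cntn1 at -3.88 (edgeR adjusted p = 0.0124), Cdh8 at -2.85 (0.0164), Cdh2 at -2.06 (0.0204) and Cdh18 at -1.68 (0.0292). Cntnap4 (-2.10, 0.0517), Cdh11 (-1.62, 0.0592) and Cntnap3 (-1.57, 0.154) did not pass. Little was left of Cdh12 at -0.24 (edgeR adjusted p = 0.819), Cntn5 at -0.16 (0.886) and Cdh22 at 0.65 (0.637), whose mouse estimates by label in this fit were 1.58, 1.10 and -1.93. Cdh3 passed only with the sign turned, at 2.34 (edgeR adjusted p = 0.0311).

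**Figure D5:**
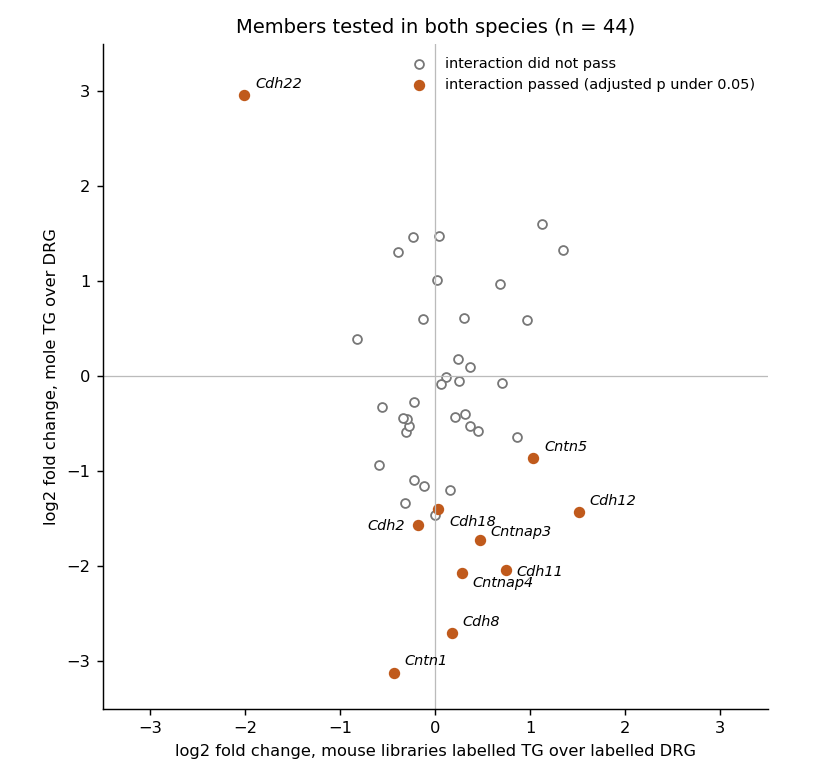
Log2 fold change of TG over DRG in the mole (vertical) against that in the mouse by label (horizontal) for the 44 members tested in both species, filled where the interaction passed. Cdh22 stands alone at the upper left, at 2.96 and -2.01, and the other 9 filled points have mole values from -0.86 to -3.12.

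Between the species, the remaining contactins and synaptic genes had differences that did not pass. Cntn2 gave -0.62 (SE 0.53), Cntn3 -0.57 (SE 0.69), Cntn4 1.23 (SE 0.66) and Cntn6 0.01 (SE 1.25). Cntn4 passed with DESeq2 (1.70, adjusted p = 0.0363) and with upper-quartile factors (1.88, edgeR adjusted p = 0.0465). For Cntnap1 it was -0.63 (SE 0.48), for Cntnap2 -1.19 (SE 0.56), and for Cntnap5a, Cntnap5b and Cntnap5c -0.94 (SE 1.63), 0.16 (SE 1.23) and -1.56 (SE 1.74). The mole side of the Cntnap5a, Cntnap5b and Cntnap5c values rests on 0 to 5 counts per library, so they say little about a species difference. Cntnap5, with 47 to 2436 counts in the mole libraries, has no mouse row and was not in this test. Nrxn2 stood at 0.26 (SE 0.36) and Nrxn3 at -1.34 (SE 0.49, edgeR adjusted p = 0.0838), which passed in the TruSeq libraries alone (-1.86, 0.00723) and without mole TG 1 (-1.75, 0.00599). Without mole DRG 2, Cntnap2 passed at -1.55 (edgeR adjusted p = 0.00626). The neuroligins Nlgn1, Nlgn2 and Nlgn3 gave -1.46 (SE 0.72), -0.51 (SE 0.52) and -0.78 (SE 0.44). The 11 protocadherins ran from -1.96 to 0.03. Cdh3 had nearly the same log2 fold change in the mole, 1.33, as in the mouse by label, 1.34, and its difference in the joint fit was -0.48 (SE 0.53, edgeR adjusted p = 0.567).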

How the data were processed

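Read counts per gene were used as deposited by the authors: whole numbers with no further normalization, for 6 mole and 4 mouse libraries. Alignment by the authors used Stampy 1.0.11 (substitution rate 0.03), with mole reads going to human, then dog, then mouse transcripts, summing counts over HomoloGene (build 64) homologs, and mouse reads to mouse transcripts. Whether counting used strand is not given in the sources used here. The authors' lists of called genes were not used, and 2 mouse samples were not analysed here.

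Members and lists were chosen with earlier results of these data known. 1 gene is not reported here and is in no count of members. Named were the reported contactins, Caspr genes, neurexins and neuroligins, each cadherin or protocadherin past the threshold and the 2 highest per kilobase in each family in the mouse, and up to 4 genes of a partner list. Groups followed the labels. The edgeR 4.0.16 quasi-likelihood test (R 4.3.3; TMM factors, genes kept by filterByExpr at a minimum count of 10, Benjamini-Hochberg over all genes tested) was run, within each species and, over 24049 shared symbols, as an interaction. The SE is the log2 fold change divided by the square root of F. GC offsets were a loess (span 0.3) of log2 CPM on GC content from GENCODE M21 (GRCm38). DESeq2 1.42.0 and the other alternatives are given at the end. Tests were tried on simulated data. P-values measure the spread between these samples.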

Additional observations from a re-analysis of the deposited data

Results flagged for a closer look

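The TG against DRG difference was not the same in mole and mouse for 10 members, by edgeR's interaction test over all 10 libraries with mouse libraries as labelled. In the mole the log2 fold change of TG over DRG exceeded that in the mouse by 4.50 for Cdh22 (edgeR adjusted p = 0.00625), with the mole estimate above 0 and the mouse estimate below it. It fell short of the mouse value for 9 members: Cdh12 (-3.41), Cdh8 (-3.33), Cdh11 (-3.25), Cntn1 (-3.16), Cntnap4 (-2.82), Cntnap3 (-2.66), Cntn5 (-2.37), Cdh18 (-1.89) and Cdh2 (-1.86). In 8 of the 10, the estimates of the species had opposite signs by label, and for Cntn1 and Cdh2 both were negative. The 10 were picked for their difference between the species, which favours opposite signs, so this count is no further support. Of the 44 members tested in both species, 21 had the same sign. Only Cdh11 passed in the mouse alone, and the mouse estimates of Cdh18 (0.03, SE 0.18) and Cdh8 (0.17, SE 0.26) were smaller than their SE. Hox genes run against the mouse labels. With the sign of the mouse term turned, Cdh2, Cdh8, Cdh18 and Cntn1 still passed, while Cdh12 was at -0.24, Cntn5 at -0.16 and Cdh22 at 0.65.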

How the results depend on the processing

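Called differences kept their direction under every alternative run: 11 in the mole over 176 values (48 no longer past the threshold), 1 in the mouse over 10 (3) and 10 in the interaction over 180 (22). The ganglia overlapped for none of the 11 mole calls, nor by label for the mouse call. Leaving libraries out could therefore hardly turn these directions, and their direction in such fits is no further support. Among the members without a call, 47 of 539 mole values, 37 of 490 mouse values and 31 of 733 interaction values came past the threshold, and 50, 26 and 67 changed sign, of which 1, Cdh3 in the interaction, was past it. That was with the sign of the mouse term turned, where 4 negative interactions passed. With 1 library left out, mole members higher in TG numbered 0 to 4 and in DRG 2 to 13, mouse members 0 to 13 and 0 to 5 by label, and interactions 1 (positive) and 4 to 14 (negative). The extremes came without mole TG 2 (0 and 2, with 409 of the 4241 mole calls over all genes) and without mole TG 1 (4 and 13), in the mouse without mouse DRG 1 (13 and 5), and in the interaction without mouse DRG 2 (4) and without mole TG 1 (14). Over all genes, calls ran from 409 to 7036 in the mole, 37 to 4905 in the mouse and 759 to 6354 in the interaction.

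Upper-quartile factors gave 5 members higher in the mole TG and 2 positive interactions. Positive interactions over all genes were 1570 with RLE and 1791 with upper-quartile factors, and negative ones 1697 and 1498. No filter gave 1 member higher in the mole TG and 2 in the mouse libraries labelled TG, with 401 and 445 mouse genes called over all. DESeq2 gave 4 in the mole TG, 4 and 1 in the mouse by label and 3 positive interactions, with 745 and 1032 genes called in the mouse against 240 and 258, and 2912 positive interactions over all genes against 948. GC offsets gave 6 members higher in the mole DRG, with 834 and 1300 genes called over all genes against 1900 and 2341, and GC offsets with the replicate block gave 1 (Cntn4) and 6, with 777 and 1130. The TruSeq libraries alone gave 2 and 10 members, 906 and 1939 genes, and, in the interaction, 1 and 14 members and 4146 negative genes, with fewer samples. Without mole TG 1 and mole DRG 2, a setting chosen after seeing the data, 8 and 19 members passed in the mole, with 6236 and 5601 genes over all, and 3 and 21 in the interaction, with 3889 and 6150. Other causes were not tested.

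Same-numbered mole libraries had deviations correlated at 0.37, 0.49 and -0.17, and differently numbered ones at -0.45 to 0.30. These are deviations from means of 3 libraries, with mole TG 1 and mole DRG 2 apart from the others. They cannot tell whether the numbers pair the samples. With a replicate block the mole gave 2 and 9 members, losing Cdh3 (edgeR adjusted p = 0.0703) and gaining Cdh15 (0.0346), and the mouse 0 and 0. With the mouse numbers crossed (correlation -0.13 as numbered), a block chosen after seeing the data gave 6 and 4 by label, and 965 and 1318 genes over all. Cdh29 and the 3 mouse-style Cntnap5 copies had at most 5 counts in any mole library, also in mole DRG 3 with its total of 92323879 counts.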
